A study of Xenopus laevis with 18 samples.

Results

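The late neurula of the African clawed frog Xenopus laevis was compared with its early neurula, as 2 libraries (NF18 and NF20, stages of the Nieuwkoop and Faber series) against 2 libraries (NF14 and NF16). These 4 libraries were taken by their stage labels from a series of 18, which runs from NF0 to NF33 with 1 library per stage. Every library was made from whole embryos of the J strain, raised in dilute saline with gentamycin and snap frozen, and from total RNA depleted of ribosomal RNA with a RiboZero kit. Whole embryos mix all tissues, so in these bulk libraries fewer cells of a type and less RNA per cell cannot be told apart. How many embryos went into each library is not stated in those labels. No stage has replicate libraries, and neighbouring stages stand in for them. An SD or a p-value below therefore measures spread between neighbouring stages, which holds real change as well as technical spread. Differences between the embryos collected for each library also enter it, and they cannot be told apart from stage.

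During neurulation the neural plate, a sheet of ectoderm on the back of the embryo, raises its edges into folds that meet and close into the neural tube. In the same period neural crest cells form at the border of the plate and somites form beside the notochord. The early neurula stages cover the open plate and rising folds, and the late neurula stages cover the closure of the tube. Rows of the deposited table carry sequence names without gene symbols, and 0 of 30993 row names matched the RefSeq gene table used here. Rows are therefore described by their level and course, and markers of tissues or cell types could not be looked up. Levels are in TPM, an abundance per length relative to a fixed total, here with 92 rows of ERCC spike-ins left out and the Xenopus rows scaled to 1000000 per library. ERCC spike-ins are synthetic RNAs added to a sample. Since they have no developmental stage, their spread served as the yardstick for technical spread. That yardstick does not cover differences between embryos.

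The late libraries listed slightly more transcripts than the early ones, and the ratio of Xenopus RNA to spike-ins did not separate early from late. At 1 TPM or more there were 19000 rows at NF14, 18976 at NF16, 19310 at NF18 and 20256 at NF20. At 100 TPM or more there were 1640, 1700, 1628 and 1460 rows in the same order. For both measures the early and late libraries did not overlap. The Xenopus total divided by the ERCC total was 1.91 at NF14, 1.50 at NF16, 1.89 at NF18 and 2.09 at NF20, between 1.39 at NF12 and 2.88 at NF23. NF18 thus lay below NF14 and the groups overlapped, at 1.71 ± 0.288 (SD, n = 2) and 1.99 ± 0.142 (SD, n = 2). With 2 libraries against 2 an exact permutation test cannot go below p = 0.333 (two-sided), so library values were not tested. The depth of the libraries is unknown, since the files hold no read counts.

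Xenopus transcripts spread more between early and late neurula than spike-ins did in all 4 ranges of abundance. The robust SD of the early-to-late log2 change, taken from the median absolute deviation, was 0.43 over 13674 Xenopus rows whose mean was at least 10 TPM. It was 0.11 over the 54 spike-in rows with a mean of at least 10 on the spike-in scale, on which each value is divided by the ERCC total of its library. Between 100 and 1000 the values were 0.41 for 1633 Xenopus rows and 0.11 for 19 spike-in rows. In that range the largest change of a spike-in was 0.34 on the log2 scale, and 43.4% of Xenopus rows in TPM changed by more. From 10 to 100 the largest change of a spike-in was -2.33, for ERCC-00077, which stood at 109, 17.6, 0 and 80.2 in the 4 libraries in stage order. In that range 0.836% of 11963 Xenopus rows changed by more. The robust SD of the spike-ins was larger at low levels. From 1 to 10 the robust SD was 0.57 for 7996 Xenopus rows and 0.28 for 25 spike-in rows. A 2-fold or larger change was found for 15.1% of those Xenopus rows and for 16.0% of those spike-in rows, which is 4 of 25. Below 10 TPM a 2-fold change was thus no rarer among spike-ins.

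**Figure D1:**
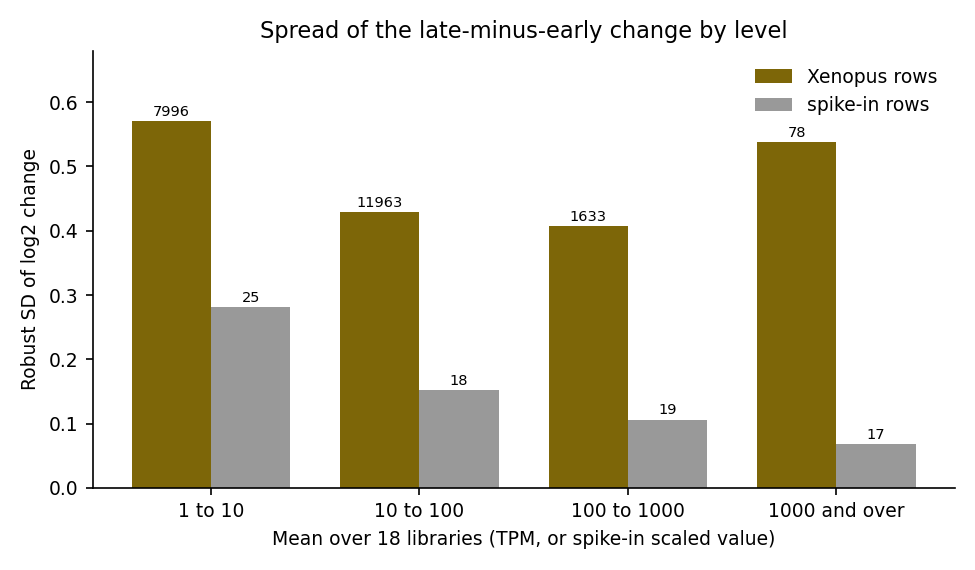
Robust SD of the log2 change from early to late neurula (vertical axis) for Xenopus rows in TPM and spike-in rows on the spike-in scale, in 4 ranges of the mean over 18 libraries (horizontal axis), with the number of rows above each bar. The Xenopus bar is the higher of both in every range, and the spike-in bars shrink from 0.28 to 0.07 as the level rises.

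Change did not run evenly over the 4 stages, and the step inside the late neurula was the widest. Among the same 13674 rows, 2.49% changed 2-fold or more from NF14 to NF16. The share was 4.31% from NF16 to NF18, where 351 rows were higher and 239 lower. It was 6.27% from NF18 to NF20, where 458 rows were higher and 399 lower. The robust SD was 0.29, 0.36 and 0.41 in these 3 steps on the log2 scale, against 0.15, 0.13 and 0.13 for the 54 spike-in rows. The step between early and late neurula was therefore no wider than the step within the late neurula. Each step compares 1 library with 1 library and has no replicate check.

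Between early and late neurula, 722 of 21670 rows rose (3.33% called) and 498 fell (2.3% called). The rows tested had a mean over all libraries of at least 1 TPM. The test was limma on log2(TPM + 1) with Benjamini-Hochberg adjustment at 0.05, fitted over all 18 libraries in 7 windows of stages. The rising rows had a median log2 change of 1.50, and 654 of them changed at least 2-fold. Their median was 1.61 TPM in early and 8.51 TPM in late neurula, against 9.07 and 9.65 TPM over all rows tested. The falling rows had a median log2 change of -0.91, and 197 changed at least 2-fold. Called or not, 6.46% of all rows tested were at least 2-fold higher and 2.99% at least 2-fold lower. The rows that fell were more abundant, with a median of 28.0 TPM in early and 14.7 TPM in late neurula. For every called row the libraries did not overlap between early and late. Over all rows tested both late libraries lay above both early ones in 25.9% and below them in 25.4%.

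These counts were reached only with libraries from before NF14 in the fit. Leaving those libraries out changes the spread and also leaves fewer than the 11 residual degrees of freedom of the main fit. Which of these lowered the counts was not tested. With the 4 neurula libraries fitted alone limma called 4 rows higher and 6 lower, and with the 8 libraries from NF14 on it called 2 higher and 1 lower. In the fit of 4 libraries 3323 of 21292 rows, or 15.6%, had an unadjusted p under 0.05. The median SD of log2 values of the rising rows was 0.065 within the pre-midblastula window and 0.52 within the neurula groups, while over all rows tested it was 0.13 and 0.25. For the falling rows it was 0.094 and 0.26. The counts also moved when single libraries were left out. Without NF14 the counts were 217 higher and 72 lower, without NF16 332 and 95, without NF18 1672 and 1332, and without NF20 151 and 29. In the main fit and in all 4 of these fits 112 rows were called higher and 17 lower.

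**Figure D2:**
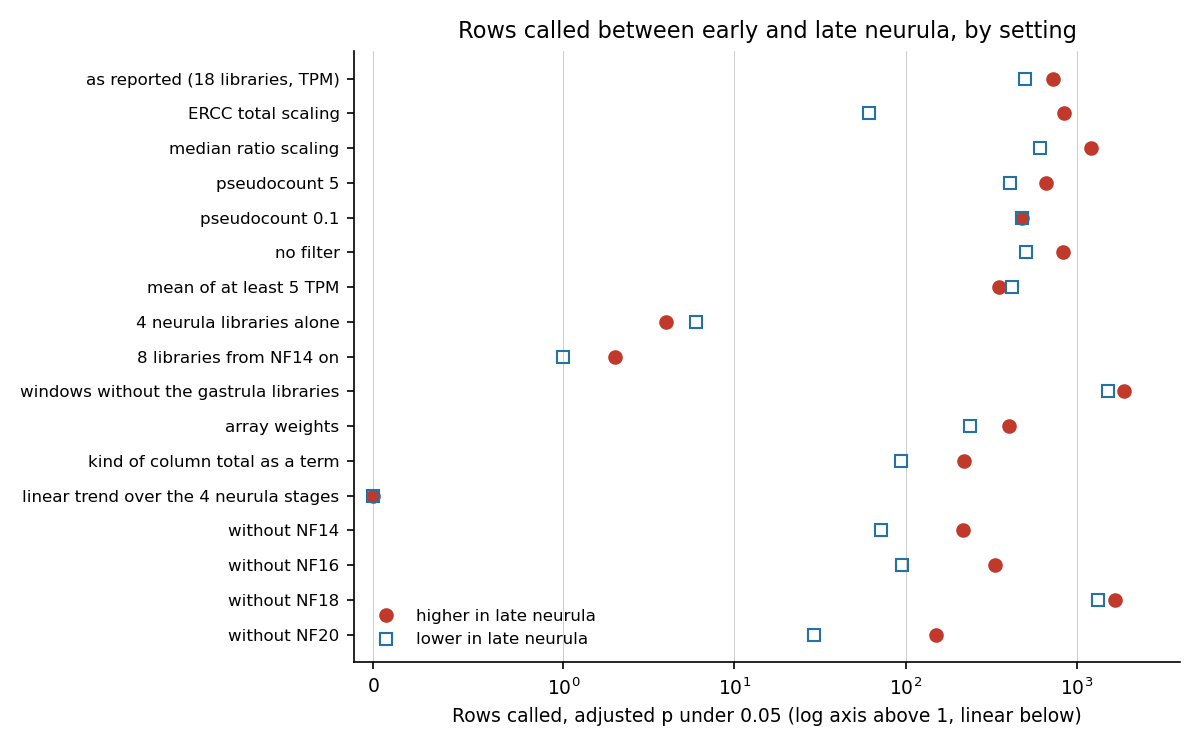
Number of rows called higher (filled circles) and lower (open squares) in late than in early neurula (horizontal axis, logarithmic above 1 and linear below) under each setting (vertical axis). The counts are 722 and 498 as reported, and 6 or fewer in either direction where only libraries from NF14 on were fitted.

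The deposited columns also differed in kind between early and late neurula. Both early columns summed to 1000000 within rounding, while NF18 exceeded it by 2.49% and NF20 by 2.26%, and no label or header says why. Among the 4 neurula libraries the kind of column and the stage group cannot be told apart. The other windows, except late tailbud, hold both kinds, and with the kind as a term in the fit 219 rows were higher and 94 lower. By limma 0 of 21670 rows passed for the term itself, while 649 were at an unadjusted p under 0.05. Inside those windows the kind follows stage order. The columns over 1000000 come first in the pre-midblastula, gastrula and early tailbud windows and last in the blastula window. The term therefore also holds change between stages, and it cannot isolate the kind of column. In the 14 libraries outside the neurula, the rows that rose differed between kinds by a median of -0.02 on the log2 scale and the rows that fell by 0.01, against 0.02 over all rows. The spread within these same libraries entered the choice of the called rows, which favours a small difference between kinds there. These medians are therefore given as a description only.

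The number of rows called lower moved with the scaling, as it did with other settings. On the spike-in scale the median row was higher in late neurula by 0.19 on the log2 scale, and 842 rows were called higher (3.89% called) and 61 lower (0.281% called). Of the 722 rows that rose in TPM 681 were also called higher per spike-in. Of the 498 that fell 60 were also called lower, and all 498 kept a negative sign, with a median of -0.69. Most of the falling rows thus fell relative to the Xenopus total without passing the test against the spike-ins. On the spike-in scale the ratio of Xenopus to ERCC total enters every row, and it was 1.91 at NF14 and 1.50 at NF16. Its part in the lower count was not tested. Median ratio scaling, which brings the median ratio of rows to 1 level in every library, gave 1219 higher (5.63% called) and 610 lower (2.81% called). Of 79 spike-in rows tested on the spike-in scale 2 were called (2.53% called), which are ERCC-00041 and ERCC-00085, both with a mean under 10. Spike-in ERCC-00041 stood at 1.34 and 1.73 in the early and 5.03 and 3.60 in the late libraries, and ERCC-00085 at 10.1 and 6.42 against 1.35 and 2.61. With a mean of at least 10, limma called 0 of 54 spike-in rows, 1 of which had an unadjusted p under 0.05. In the same range 269 Xenopus rows were higher and 461 lower in TPM (5.34% called in all). Per spike-in 340 were higher and 48 lower (2.84% called in all). Of the 722 rows that rose, 453 lay below a mean of 10 TPM, where 2 of 25 spike-in rows were called. There 6.13% of Xenopus rows were called in TPM and 6.44% per spike-in, against 8.0% of spike-in rows. In this fit, calls below 10 TPM were thus no more frequent among Xenopus rows than among spike-ins. That comparison rests on only 2 called spike-in rows.

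**Figure D3:**
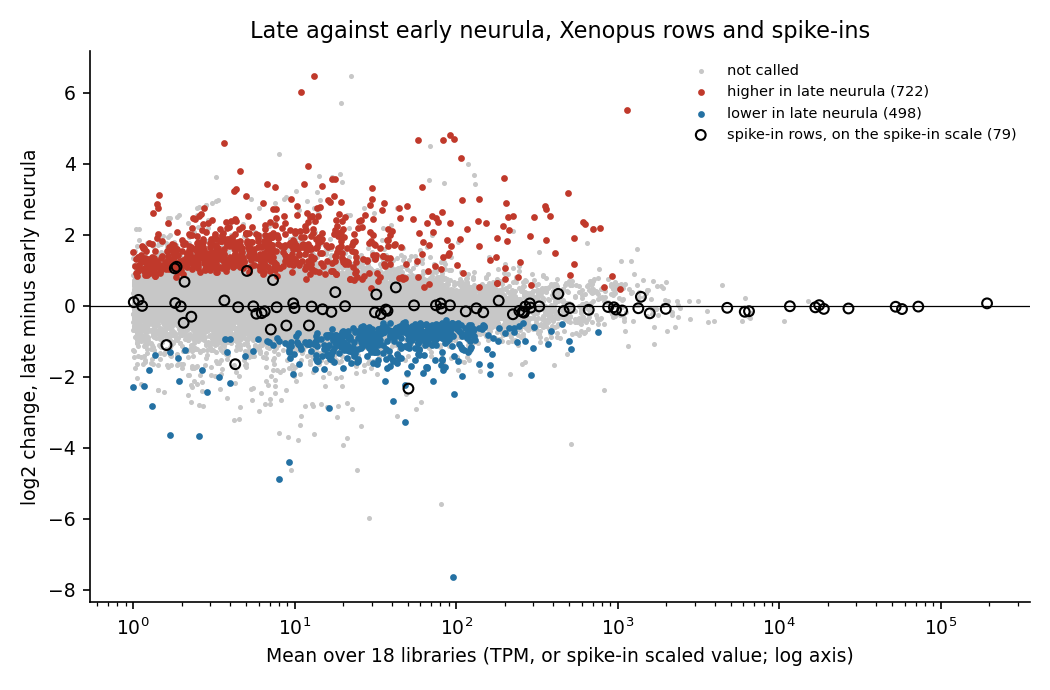
The log2 change from early to late neurula (vertical axis) against the mean over 18 libraries (horizontal axis, logarithmic) for 21670 Xenopus rows in TPM, with the 722 called higher in red and the 498 called lower in blue, and 79 spike-in rows on the spike-in scale as open circles. Spike-ins with means of at least 100 stay within 0.34 of zero. From 10 to 100 the farthest lies at -2.33, and from 1 to 10 at -1.64.

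Rows that rose in the neurula were mostly low in the maternal stock. Of the 722 rows 545 had a pre-midblastula mean under 1 TPM, and 513 of these were also under 1 TPM in the gastrula window. Of all rows tested 20.2% were in the first of these classes and 11.0% in the second. The second class held 2382 rows tested, of which 21.5% were called higher and 0.168% lower. A row so low before the neurula could pass the filter on its mean only through later libraries, which ties this share to the filter. Of the rising rows 43.8% were at 0 in all pre-midblastula libraries, against 10.3% of all rows, and a row at 0 throughout a window has no spread there, which favours a call. The reverse held for the rows that fell. Of the 498 rows 472 had a pre-midblastula mean of at least 10 TPM, and 462 of these also had a gastrula mean of at least 10 TPM. Of all rows tested 61.3% and 51.3% were in these classes. Among the 11117 rows of that class 4.16% were called lower and 0.495% higher. Calls lower also followed the level of a row. With a mean over all libraries of 1 to 10 TPM 0.463% of rows were called lower, against 3.33% from 10 to 100 TPM. The share of falling rows in the high classes is thus tied to their level. Only 89 rows that rose had a pre-midblastula mean of at least 10 TPM, which is 0.670% of all rows with such a mean. A pre-midblastula mean under 1 TPM was found for 17 rows that fell, which is 0.389% of all rows with such a mean.

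The levels of these rows outside the neurula did not enter the neurula difference itself. The other 14 libraries did enter the choice of rows, through the residual spread of the fit and the filter on the mean. The median of the rising rows was 0.22 TPM at NF12, 1.48 TPM at NF14, 1.82 TPM at NF16, 5.78 TPM at NF18 and 10.8 TPM at NF20. It stood at 17.0 TPM at NF23, 19.5 TPM at NF26, 17.1 TPM at NF30 and 15.1 TPM at NF33. Together the 722 rows held 0.404% of the Xenopus total at NF12, 0.890% at NF14, 3.33% at NF20 and 8.80% at NF33. The median of the falling rows was 63.3 TPM at NF10, 52.2 TPM at NF12, 28.6 TPM at both NF14 and NF16, 17.0 TPM at NF18 and 11.9 TPM at NF20. It then stayed between 10.8 and 12.9 TPM from NF23 to NF33. The 498 rows held 4.63% of the total at NF10, 2.53% at NF14, 1.21% at NF20 and 0.839% at NF33. The medians of both sets had already moved from NF12 to NF14. The later course depended on the scale. On the spike-in scale the median of the rising rows was 11.3 at NF20, 24.5 at NF23 and 31.8 at NF33. The median of the falling rows was 27.4 at NF14, 12.5 at NF20, 16.3 at NF23 and 22.7 at NF33 on that scale. It thus went up again after NF20 relative to the spike-ins while staying low in TPM. This rise was not particular to the falling rows. Over the 20450 rows tested but not called, the median on that scale was 10.1 at NF20, 15.0 at NF23 and 20.8 at NF33.

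**Figure D4:**
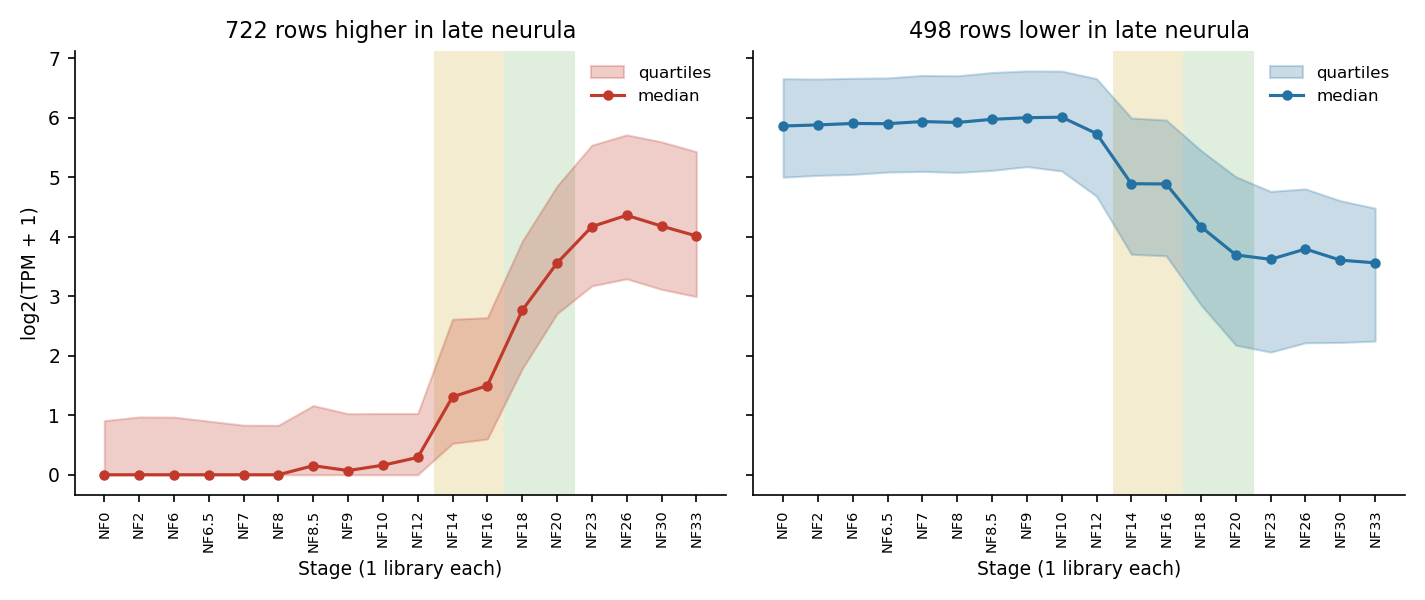
Median (line) and quartiles (band) of log2(TPM + 1) (vertical axis) at each of 18 stages with 1 library each (horizontal axis), for the 722 rows higher and the 498 rows lower in late neurula, with early neurula shaded yellow and late neurula green. The sign of the neurula change chose these rows, and the spread of all libraries entered the test. The rising rows go from near 0 to a median of 19.5 TPM at NF26, and the falling rows go from 63.3 TPM at NF10 to 11.9 TPM at NF20.

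Most of these rows also differed, in the same direction, between gastrula and tailbud embryos. Of the 722 rows that rose 690, or 95.6%, were higher in the 4 tailbud libraries than in the 2 gastrula libraries and 4 were lower (limma, adjusted p under 0.05). Of the 498 rows that fell 478, or 96.0%, were lower in tailbud and 4 were higher. Over all rows tested 28.4% were called higher and 38.1% lower. No library is shared with the neurula contrast, but the residual spread of each row is. The median SD within the gastrula window was 0.14 for the rising and 0.22 for the falling rows on the log2 scale, against 0.48 over all rows. Rows chosen for a small spread pass a second test in the same fit more readily, so the shares of called rows and of all rows are given as a description. Between gastrula and blastula, 25 of the rows that rose (3.46%) were higher and 101 (14.0%) lower. Of the rows that fell 71 (14.3%) were higher in gastrula and 66 (13.3%) lower. Over all rows these shares were 12.6% and 34.5%. Only the share of falling rows that were higher in gastrula was not below that of all rows. Most of the called rows, 596 of the 722 and 361 of the 498, passed in neither direction.

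The called rows were also followed within the tailbud window. The libraries NF30 and NF33 were compared with NF23 and NF26. Of the 722 rows that rose in the neurula 11, or 1.52%, were higher and 19, or 2.63%, lower (limma, adjusted p under 0.05). Over all rows 2.4% were higher and 2.76% lower, so the rising rows were not called more often than all rows. Of the 498 rows that fell 14, or 2.81%, were higher and 45, or 9.04%, were lower. The shared residual spread bears on these shares too. The difference between the neurula change and the tailbud change was tested as an interaction in the same fit. Over all rows 538 had a more positive change in the neurula (2.48% called) and 378 a more negative one (1.74% called). With only the 8 libraries from NF14 on in the fit, 4 rows in all were called for this difference.

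Many called rows moved through all 4 stages in order. Of the rows that rose, 373 of 722 increased in each of the 3 steps, and of the rows that fell 226 of 498 decreased in each. Those shares are 51.7% and 45.4%. The called rows do not overlap between early and late neurula, which fixes the sign of their middle step. Among all rows tested without such overlap, 42.5% of 5609 rows increased and 33.7% of 5502 rows decreased in each step. Of 79 spike-in rows 9 had both late values above both early ones, and 3 of these increased in each step. In 21 spike-in rows both late values lay below both early ones, and 3 of these decreased in each step. The rising rows moved by a median of 0.05 from NF14 to NF16, 1.02 from NF16 to NF18 and 0.86 from NF18 to NF20 on the log2 scale. The falling rows moved by 0.01, -0.65 and -0.44. The spread within each pair enters the test, so the steps within pairs are not independent of the choice of rows. The median SD of log2 values was 0.22 within early and 0.61 within late neurula for the rising rows. It was 0.11 and 0.32 for the falling rows, against 0.16 and 0.23 over all rows tested. The rising rows were thus not steadier than all rows within either pair. A median step near 0 can hold moves in both directions.

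The 4 rows named here are the largest changes among the 214 rising and 30 falling rows that passed in TPM and per spike-in. They also had no overlap, were above 0 in all 4 libraries and reached at least 10 TPM in both libraries of the higher group. XeXenL6RMv10024076m had a listed value of 0 in each of the 5 pre-midblastula libraries. Its early neurula values were 0.366 TPM at NF14 and 0.400 TPM at NF16. It reached 64.6 TPM at NF18, 21.8 TPM at NF20, 577 TPM at NF23 and 604 TPM at NF26, and was at 161 TPM at NF30 and 223 TPM at NF33. Both late values lay far above both early ones, and NF20 lay below both of its neighbours. The log2 change on the log2(TPM + 1) scale was 4.80 (SE 0.449, limma, adjusted p = 0.00014).

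XeXenL6RMv10023414m was also listed at 0 before the midblastula. It stood at 1.26 TPM at NF14, 1.47 TPM at NF16, 26.2 TPM at NF18 and 135 TPM at NF20, and lay between 195 and 235 TPM in the 4 tailbud libraries. In TPM its level rose in every step of the neurula and was nearly level from NF23 on. On the spike-in scale it was not level, and stood at 142 at NF20, 282 at NF23 and 484 at NF33. The log2 change was 4.69 (SE 0.554, limma, adjusted p = 0.000743).

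XeXenL6RMv10041137m had the largest fall among the 30 rows eligible to be named. It was first above 0 at NF9, with 3.49 TPM, and stood at 19.2 TPM at NF10 and 116 TPM at NF12. Its neurula values were 39.9 TPM at NF14, 97.4 TPM at NF16, 14.7 TPM at NF18 and 3.73 TPM at NF20, and every tailbud value was 1.04 TPM or less. The early values lay far apart, and the log2 change was -2.88 (SE 0.799, limma, adjusted p = 0.0492). The log2 change was -3.51 without NF14, -2.25 without NF16, -3.75 without NF18 and -2.01 without NF20. Each of these fits leaves 1 library in a group, so only the size is given.

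XeXenL6RMv10018740m was present before the midblastula at 31.5 ± 1.37 TPM (SD, n = 5), rose to 784 TPM at NF10 and stood at 475 TPM at NF12. It was at 36.3 TPM at NF14, 45.2 TPM at NF16, 12.1 TPM at NF18 and 3.21 TPM at NF20, and fell further to 0.235 TPM at NF33. Most of its fall from the gastrula peak was over by NF14, and the late neurula values were the first below the lowest pre-midblastula value. The log2 change between early and late neurula was -2.48 (SE 0.564, limma, adjusted p = 0.0227). The log2 change was -2.64 without NF14, -2.33 without NF16, -3.30 without NF18 and -1.66 without NF20, again with 1 library left in a group. With the neurula libraries fitted alone limma gave adjusted p-values of 0.147, 0.268, 0.278 and 0.269 for the 4 rows in the order named.

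**Figure D5:**
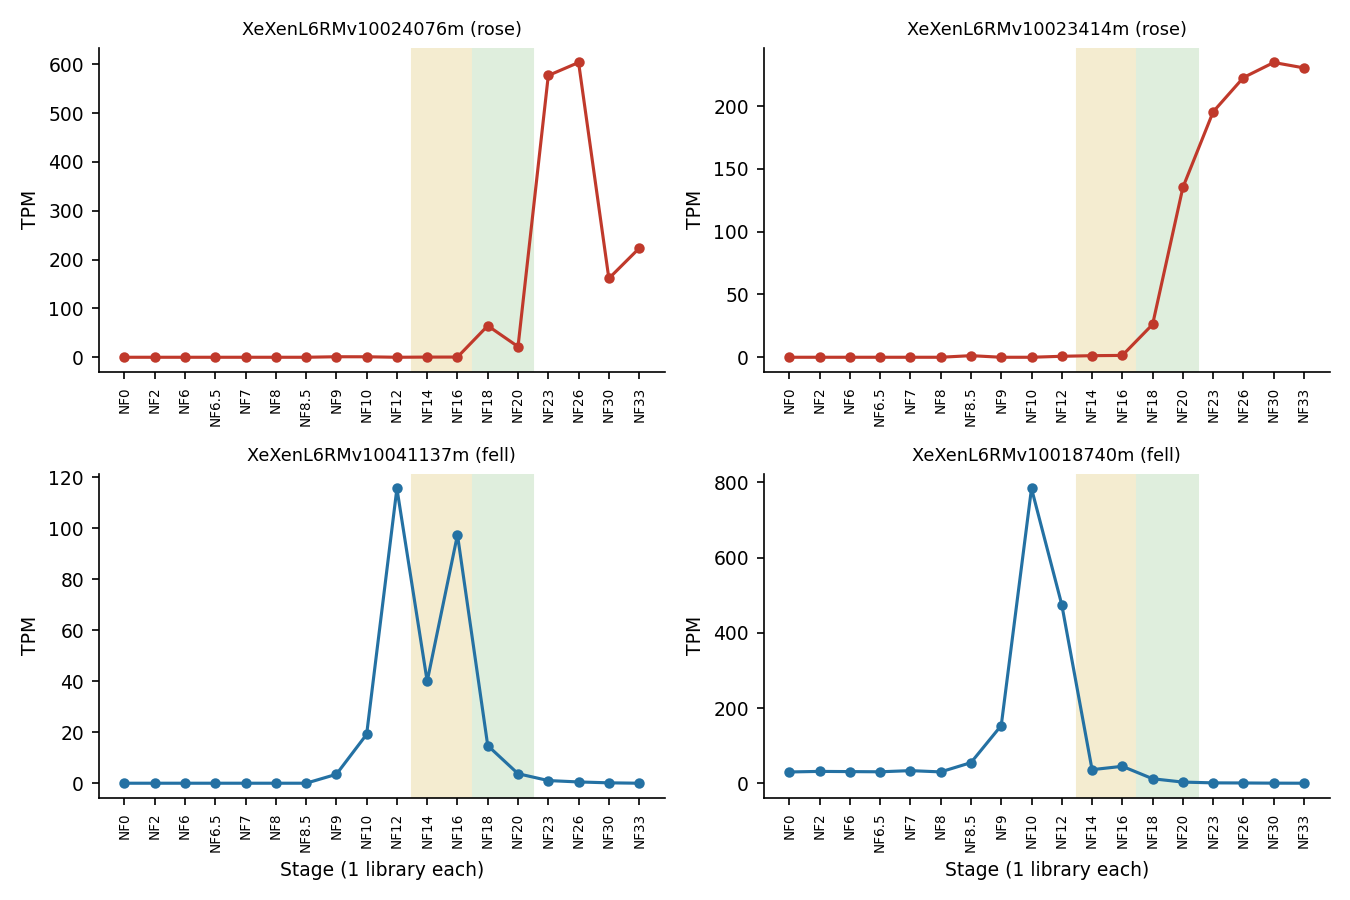
TPM (vertical axes) at each of 18 stages with 1 library each (horizontal axes) for the 2 named rows that rose and the 2 that fell, with early neurula shaded yellow and late neurula green. Both rising rows are highest in tailbud libraries, and both falling rows are highest at NF10 or NF12.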

How the data were processed

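The members and lists were chosen with earlier results of these data known. Per the submitters' processing notes the tools were CASAVA 1.8.2, Trimmomatic, Bowtie and RSEM. Their roles, the genome build and the transcript reference are not given in the sources. In 9 of 18 columns the authors deposited TPM. The other 9 deposited columns are a signal on the same scale that sums to between 1.48% and 2.72% over 1000000. The design had assumed TPM throughout.

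Here ERCC rows were left out, each library was rescaled to 1000000, and log2(TPM + 1) was tested with limma 3.58.1 under R 4.3.3 (trended eBayes, Benjamini-Hochberg) on the 21670 rows whose mean reached 1 TPM. The windows were pre-midblastula (NF0 to NF7), blastula (NF8 to NF9), gastrula (NF10 and NF12), and early neurula (NF14 and NF16), late neurula (NF18 and NF20), early tailbud (NF23 and NF26) and late tailbud (NF30 and NF33). The fit has 11 residual degrees of freedom. On the spike-in scale values were divided by the ERCC total and multiplied by 1 constant. Named rows followed a fixed rule of size, given beside them. Alternatives were other scalings, pseudocounts, filters, sets of libraries, weights, a linear trend and leaving out each neurula library. Depth is unknown, so no counting interval is given.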

Additional observations from a re-analysis of the deposited data

Results flagged for a closer look

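Of the 4 named rows, both that rose had a neurula change that differed from their tailbud change by the interaction test. For XeXenL6RMv10024076m the log2 change in the neurula minus that in the tailbud was 6.44 (limma, adjusted p = 0.000187). Its mean went from 0.383 to 43.2 TPM from early to late neurula and from 590 to 192 TPM from early to late tailbud. For XeXenL6RMv10023414m the difference was 4.53 (limma, adjusted p = 0.00813). Its mean went from 1.37 to 80.7 TPM from early to late neurula and from 209 to 233 TPM from early to late tailbud. Both rows were chosen for a large neurula change, which enters this difference.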

How the results depend on the processing

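No paired analysis was possible because each stage has 1 library and no replicates to pair. Rows called higher in late neurula, 722 in TPM, numbered 1219 with median ratio scaling, 352 with a mean of at least 5 TPM, 1878 without the gastrula libraries in the fit, 403 with array weights and 219 with the kind of column as a term. They numbered 4 with the neurula libraries alone, 2 with the 8 libraries from NF14 on and 0 for a linear trend over the 4 stages (limma, 4868 rows at an unadjusted p under 0.05). Rows called lower, 498 in TPM, numbered 61 on the spike-in scale, 1524 without the gastrula libraries, 238 with array weights, 94 with the kind of column, 6 with the neurula libraries alone, 1 with 8 libraries and 0 for the linear trend. Leaving out 1 neurula library gave 151 to 1672 higher and 29 to 1332 lower, where the lone library of a group is assumed to vary like the other windows. Of the rows called without NF18, 687 higher and 466 lower were shared with the full fit. With pseudocounts 5 and 0.1 and with no filter both counts stayed within 1.5 times, but the rows called changed. Of the 722 rows that rose, 542 were also called higher with pseudocount 5, 366 with pseudocount 0.1 and 656 with no filter. Of the 498 that fell, 370, 413 and 441 were also called lower in the same order. Rows whose neurula and tailbud changes differed, 916 in all, numbered 4 with 8 libraries and 293 to 2038 with 1 library left out. The share of rising rows also higher in tailbud than gastrula was 92.6% to 94.9% with 1 library left out, and that of falling rows also lower was 72.4% to 95.1%. Spike-in rows called numbered 1 with no filter, 0 with the neurula libraries alone and 0 in each fit without 1 library (limma, 4 to 6 rows at an unadjusted p under 0.05). For the steps from NF12 to NF23 in order, the 2-fold shares with pseudocount 5 were 9.43%, 0.980%, 1.71%, 2.82% and 2.55%, and on the spike-in scale 16.9%, 3.38%, 5.84%, 6.73% and 11.6%. No named row changed sign, and those that rose kept their call in 12 and 11 of 14 alternatives, those that fell in 5 and 7. The cause of these shifts was not tested.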

Other observations

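Few rows appeared or disappeared outright between early and late neurula. From under 1 TPM in both early libraries to at least 10 TPM in both late ones went 9 rows, and 9 rows went the opposite way. Of the 9 rows that dropped out 8 had a tailbud mean of at least 10 TPM again. At the lower bound of 1 TPM the exchange was less even, with 429 rows that went from under to at least 1 TPM and 147 that went the other way. Of the 429 rows 413 had a tailbud mean of at least 1 TPM, and 71 of the 147 had one under 1 TPM. The counts at 1 TPM were taken among rows whose mean over all libraries was at least 1 TPM. A gastrula mean under 1 TPM was found for 285 of the 429 rows and for 12 of the 147. Rows low in the libraries before late neurula pass that filter only through later ones, which ties both counts and their tailbud levels to the filter. They are given as a description and were not compared with all rows tested. An exact 0 in these files can be a failed estimate.

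The 14354 rows that were higher in the late mean gained 12.2% of the Xenopus total. The 10 rows that gained most held 10.5% of that gain, and the 100 rows that gained most held 41.2%. Of those 100 rows 15 were called higher, and of the 100 rows that lost most 9 were called lower. Over all rows tested 3.33% were called higher and 2.3% lower. These rows were ranked by the same difference between late and early libraries that the calls rest on, so the counts are a description only. The largest gain of a single row was 2515 TPM and the largest loss was a change of -3007 TPM.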
